A study of Homo sapiens with 4 samples.

Results

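The GSTM cluster on chromosome 1 holds 5 genes, in the order GSTM4, GSTM2, GSTM1, GSTM5 and GSTM3, and its contacts were taken as all anchor pairs with at least 1 anchor overlapping chr1:110190000-110290000 (hg19). Of 1125468 anchor pairs seen in the 4 libraries, 530 met this rule, and they joined 12 of 79850 anchors to each other or to sequence on either side. The data are HiChIP libraries, in which fixed chromatin is cut, ends that lie together are ligated and SMC1-bound fragments are precipitated. Each paired-end tag (PET) therefore counts 1 ligation between 2 anchors in chromatin precipitated with SMC1, a core subunit of cohesin. All libraries are from A673, an established Ewing sarcoma cell line that carries the EWS-FLI1 fusion. There were 2 STAG2-null libraries, from single-cell clones edited with Cas9, and 2 libraries of wild-type A673, with no other allele or agent given in the labels. Whether the 2 STAG2-null libraries come from 1 clone or from different clones is not given in the sources used here, and a p-value here weighs a difference against library-to-library spread alone, some of which may be technical. The libraries held 661881 to 765017 PETs, and the loss of STAG2 could not be checked, since SMC1 contacts do not measure its transcript.

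The GSTM genes encode mu-class glutathione S-transferases, enzymes that join glutathione to reactive compounds, drugs among them, and so make them easier to export. The cluster grew by gene duplication, so its members are close in sequence, and loss of the whole GSTM1 gene is a common human polymorphism. GSTM4 has been described as a target of EWS-FLI1, a factor that binds GGAA motifs and repeats of them. Cohesin extrudes loops of DNA and carries either STAG1 or STAG2 as a subunit.

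The upstream sequences of 4 of the genes show how much of the promoter is shared within the cluster. RefSeq promoters of all 5 genes were matched by symbol (build GRCh38.p14, 250 bases before to 50 after the start), and the 250 bases before the start are printed 5′ to 3′. Capitals mark the longest run that GSTM4 shares with GSTM1 and the longest that GSTM2 shares with GSTM1. The window of GSTM5 lies inside its annotated gene and is not printed.
GSTM4: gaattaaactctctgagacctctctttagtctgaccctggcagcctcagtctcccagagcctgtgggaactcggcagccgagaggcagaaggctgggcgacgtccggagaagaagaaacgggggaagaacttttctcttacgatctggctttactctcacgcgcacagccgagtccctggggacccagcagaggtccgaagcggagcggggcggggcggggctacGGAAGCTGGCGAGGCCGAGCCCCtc
GSTM2: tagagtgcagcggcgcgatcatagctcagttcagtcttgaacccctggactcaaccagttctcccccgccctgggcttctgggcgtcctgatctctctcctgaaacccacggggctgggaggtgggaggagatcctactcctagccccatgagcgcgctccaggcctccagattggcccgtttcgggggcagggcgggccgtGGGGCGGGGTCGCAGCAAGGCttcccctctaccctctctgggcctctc
GSTM1: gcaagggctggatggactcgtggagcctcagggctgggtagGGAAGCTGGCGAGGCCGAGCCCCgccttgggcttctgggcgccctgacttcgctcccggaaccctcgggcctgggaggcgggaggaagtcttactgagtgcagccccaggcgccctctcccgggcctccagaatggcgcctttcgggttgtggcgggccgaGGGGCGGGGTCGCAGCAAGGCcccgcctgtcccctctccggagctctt
GSTM3: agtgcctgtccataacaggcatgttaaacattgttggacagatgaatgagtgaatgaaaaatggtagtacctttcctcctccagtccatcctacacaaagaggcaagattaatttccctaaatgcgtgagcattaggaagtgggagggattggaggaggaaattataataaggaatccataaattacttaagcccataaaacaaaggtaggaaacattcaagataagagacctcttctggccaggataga

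These are chr1:109655849-109656098, chr1:109667807-109668056 and chr1:109687567-109687816 on the plus strand and chr1:109741039-109741288 on the minus strand. The run of 23 bases in GSTM4 and GSTM1 also stood in GSTM5, and in no other of 35116 promoters of the same length. The run of 21 bases in GSTM2 and GSTM1 likewise stood in GSTM5 alone among the others. GSTM1 and GSTM5 shared the longest run, 53 bases, and GSTM3 shared at most 10 bases with any of the rest. GSTM3 also differed in composition, with 41.3% G and C against 62.3% to 69.3% in the other 4. The FLI1 core GGAA, searched with its reverse complement TTCC and counted with overlaps, occurred 4 times in the 300-base window of GSTM4, 4 times in GSTM1, 3 times in GSTM5, 7 times in GSTM3 and 1 time in GSTM2. The median over all promoters was 3, 95.5% of them held at least 1, and 8.29% held as many as GSTM3. None of the 5 windows held the tandem GGAAGGAA or TTCCTTCC, which 3.67% of all promoters did.

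Genes were placed at anchors through the 1 cluster loop in the authors' deposited table of differential loops. Both of its anchors are flagged there as promoters, and the genes named as starting in them are GSTM5 and GSTM4. Since RefSeq places GSTM4 at lower coordinates than GSTM5, the anchor at chr1:110191709-110202769 is called the GSTM4 anchor and that at chr1:110253275-110258164 the GSTM5 anchor. Anchors are numbered 1 (GSTM4) to 12 along the chromosome, GSTM5 being 9. Anchors 2 to 8 lie in the stretch that holds GSTM2 and GSTM1, and anchors 10 to 12 beyond the GSTM5 anchor, on the side of GSTM3. No start of GSTM1, GSTM2 or GSTM3 was placed at an anchor. On the left RefSeq lists AMPD2 and GNAT2 as the nearest protein-coding genes, and on the right EPS8L3, CSF1 and AHCYL1.

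The cluster was among the more contact-rich stretches of its size. Its 530 pairs held 2343 PETs. Among windows of 100 kb tiled along the genome, 17254 had at least 20 PETs, and 217 of these held more (percentile 98.7, median window 115 PETs). The STAG2-null libraries held 589 and 613 of these PETs and the wild-type libraries 539 and 602. In each library this was between 0.0787% and 0.0878% of all PETs. The 56 pairs within the cluster held 678 PETs, the 201 pairs to the left flank (lower coordinates) 795 and the 273 pairs to the right flank 870. Of the 530 pairs, 253 rested on 1 PET, 74 were seen in all 4 libraries and 213 in both genotypes. Another 158 were seen in STAG2-null cells alone and 159 in wild-type cells alone, with no more than 6 and 4 PETs each, or 29.8% and 30.0% of the cluster's pairs against 35.0% and 37.8% of all pairs.

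Contacts within the cluster were dense in PETs per pair. Of 63 possible pairs of its anchors at least 5 kb apart, the shortest distance in the files, 56 had a PET. At 5 to 10, 10 to 20, 20 to 50 and 50 to 100 kb these were 100%, 100%, 83.3% and 81.8% of pairs. Over all anchors of the genome the shares were 96.9%, 92.5%, 79.7% and 64.0%, so below 50 kb the cluster was close to the genome. At 50 to 100 kb the cluster had 10.7 PETs per possible pair over the 4 libraries against 1.97 for all anchors of the genome, and at 20 to 50 kb 8.5 against 3.71. At 10 to 20 kb it had 10.9 against 8.11 and at 5 to 10 kb 21.7 against 12.6. The ratio to the genome was thus larger at the longer distances. At 50 to 100 kb, however, pairs of the GSTM4 anchor with anchors 12, 11, 9 and 10 held 33, 27, 23 and 10 of the 118 PETs. That anchor is 11.1 kb wide, and the ratios make no allowance for anchor width. These ratios describe 1 locus and carry no test.

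The GSTM4 anchor was the hub of the cluster. It took part in 97 of the 530 pairs and in 898 of the 2343 PETs (38.3%), and 168 of all 79850 anchors had more PETs. It is also wide, at 11.1 kb against a median of 2.34 kb over all anchors, and 1.06% of anchors are wider. Per kb of anchor it held 81.2 PETs, at percentile 98.1 of all anchors. Per kb, anchor 11 (chr1:110272292-110275635) held more, 109 PETs, and so did anchor 10, with 88.9. In the authors' deposited table the GSTM4 anchor is flagged for FLI1 and H3K27ac and not for CTCF, and the GSTM5 anchor for H3K27ac without FLI1 or CTCF.

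The remaining anchors formed a middle and a right group. Anchor 5 (chr1:110228804-110233917) held 344 PETs and anchor 6 (chr1:110234446-110239607) 255, anchor 9 at GSTM5 held 281, and anchors 11 and 12 (chr1:110280014-110285955) held 365 and 349. Anchor 10 held 154 and anchor 2 held 142. Anchors 3, 4, 7 and 8, in the stretch of GSTM2 and GSTM1, held the fewest PETs of the cluster, with 50, 69, 82 and 32. Per kb they held 30.2, 13.1, 42.7 and 13.1 PETs, at percentiles 74.4, 39.7, 86.6 and 39.5 of all anchors. Whether reads map evenly over these duplicated genes, and whether A673 carries GSTM1, was not tested. A PET between 2 cluster anchors counts at both.

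**Figure D1:**
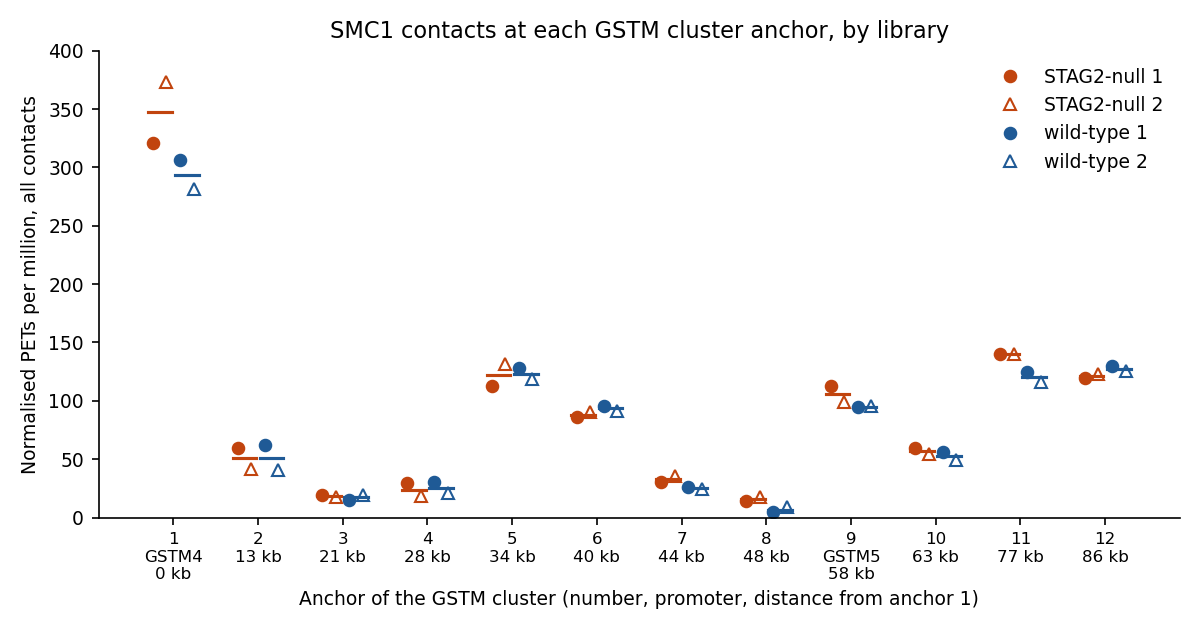
Normalised PETs (PETs over the scaled library size, on a scale of 1000000) at each of the 12 anchors, 1 point per library and a line at each group mean. The horizontal axis lists anchors by number with their distance from anchor 1, and the GSTM4 anchor stands far above the rest in all 4 libraries, with both STAG2-null libraries above both wild-type libraries.

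The anchors also differed in where their contacts went. Each of anchors 2 to 12 sent between 46.0% and 63.8% of its PETs to other anchors of the cluster. The GSTM4 anchor, the leftmost, sent 26.3% there, 40.5% to the left flank and 33.2% to the right flank. Anchors 11 and 12, the rightmost, sent 32.3% and 34.1% to the right flank and 19.2% and 18.9% to the left.

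Among single contacts within the cluster, the pair of anchors 11 and 12, 9.02 kb apart, had the most PETs, with 14 and 14 in the STAG2-null libraries and 24 and 16 in the wild-type libraries. Anchors 5 and 6, 5.67 kb apart, had 10 and 19 against 7 and 17. The GSTM4 anchor met anchor 2 with 11 and 10 against 15 and 10 PETs, and anchor 5 with 6 and 18 against 8 and 9. Across 85.7 kb it reached anchor 12 with 10 and 6 against 7 and 10 PETs. The GSTM5 anchor met anchor 11 with 7 PETs in each of the 4 libraries, and anchor 5 with 9 and 7 against 8 and 5. In these pairs other than that of anchors 11 and 12 the libraries of the genotypes overlapped in normalised PETs.

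**Figure D2:**
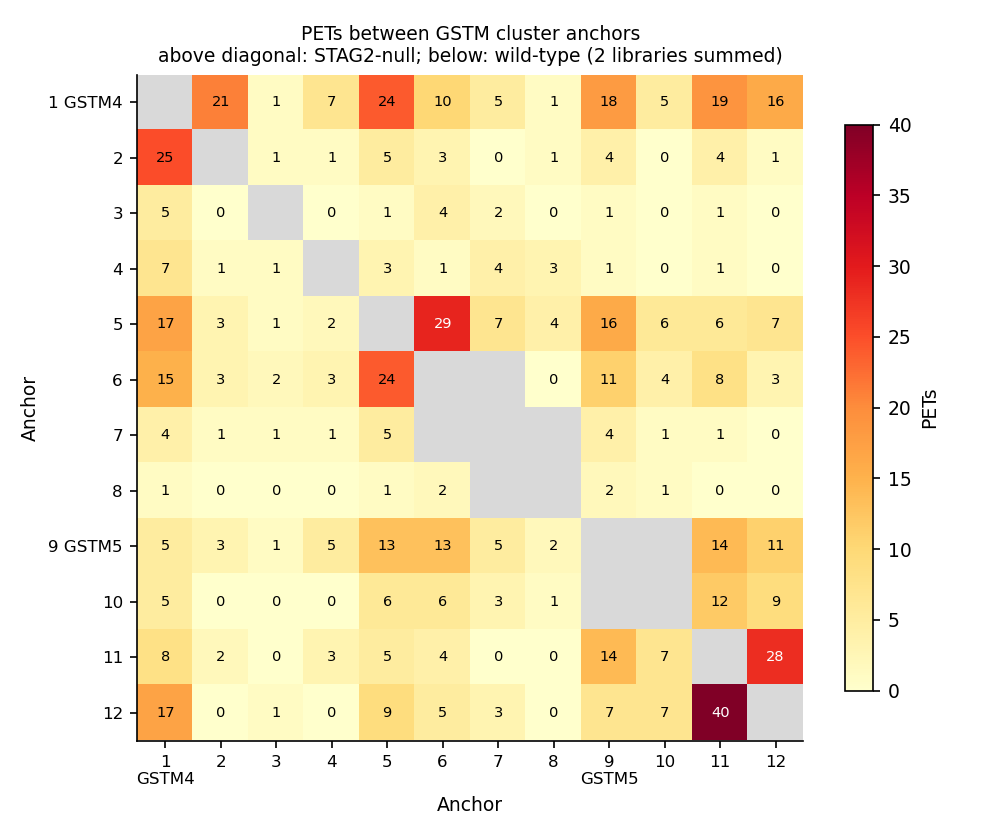
PETs between each pair of cluster anchors, with the 2 STAG2-null libraries summed above the diagonal and the 2 wild-type libraries summed below it, and colour from 0 to 40 PETs. Grey cells are pairs less than 5 kb apart, which the files do not hold, and the GSTM4 row reaches GSTM5 and anchor 11 with 18 and 19 PETs above the diagonal against 5 and 8 below it.

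The left flank was dominated by anchors next to the cluster. The anchor at chr1:110177606-110187421, centred 7.49 kb outside, took 279 of the 795 left-flank PETs (35.1%) and met all 12 cluster anchors, with 58.4% of its PETs at the GSTM4 anchor. Its pair with the GSTM4 anchor, 14.7 kb apart, was the strongest contact of the cluster, with 52 and 41 PETs in STAG2-null libraries against 31 and 39. Next came the anchors centred 99.4 kb outside (95 PETs) and 17.3 kb outside (93 PETs). Their pairs with the GSTM4 anchor held 3 and 13 against 12 and 10 PETs, and 6 and 14 against 12 and 16. Partners within 50 kb held 53.5% of left-flank PETs, against 22.1% over all windows of the genome, and those from 200 to 500 kb held 12.5% against 24.6%.

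The right flank had a near and a far group of partners. The anchor at chr1:110309420-110321317, centred 25.4 kb outside, took 189 of 870 PETs (21.7%) and met all 12 cluster anchors. Its pair with the GSTM4 anchor, 118 kb apart, held 14 and 17 PETs in STAG2-null and 13 and 25 in wild-type libraries. Partners within 50 kb held 45.7% of right-flank PETs, those from 50 to 100 and 100 to 200 kb 4.02% and 7.82%, and those from 200 to 500 kb 36.2%, against 24.7% for the last class over all windows. The main far partner was the promoter anchor of AHCYL1 (chr1:110522785-110529824), a gene for a regulator of the inositol trisphosphate receptor, centred 236 kb outside. It had 15 and 20 PETs with the cluster in STAG2-null and 19 and 21 in wild-type libraries, from 10 of the 12 anchors. The authors' deposited table flags the AHCYL1 anchor for CTCF and H3K27ac and not for FLI1. The pair of GSTM4 and AHCYL1, 329 kb apart, held 5 and 9 against 8 and 4 PETs, and the genotypes overlapped. The farthest partners lay 1865 kb to the left and 1393 kb to the right, and partners beyond 1000 kb held 15 and 6 PETs.

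**Figure D3:**
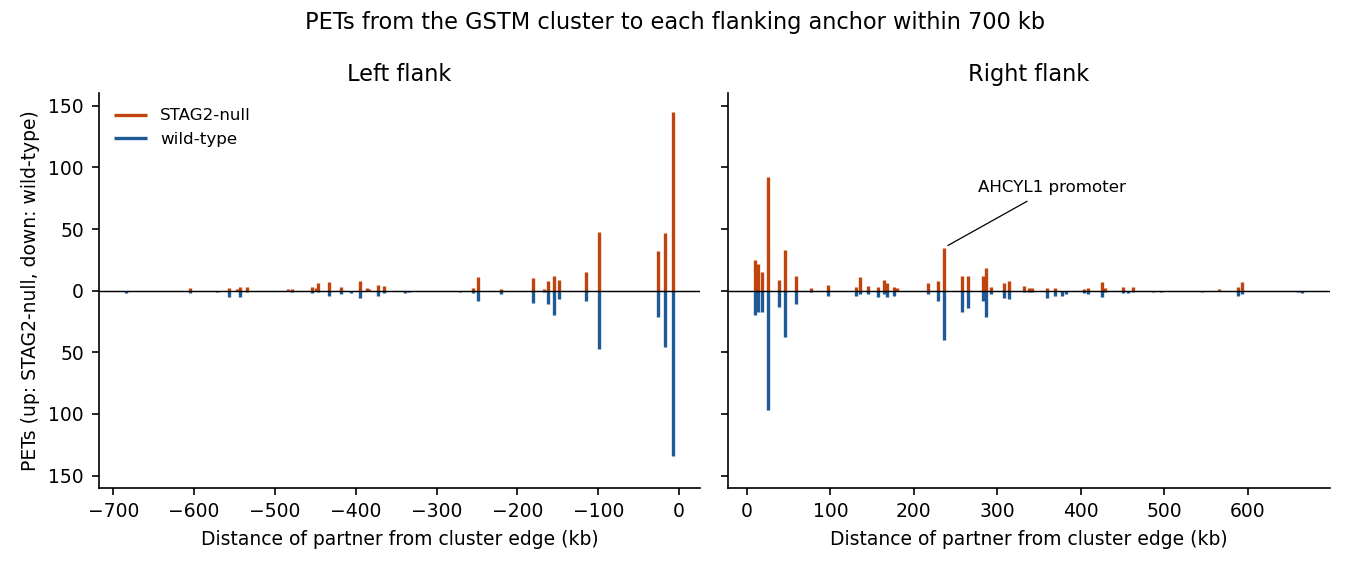
PETs from the whole cluster to each flanking anchor within 700 kb of the cluster, against the distance of that anchor from the nearer cluster edge in kb, with STAG2-null libraries summed upward and wild-type libraries summed downward. The left flank falls off from a peak of 145 and 134 PETs next to the cluster, and the right flank has a second group of partners around the AHCYL1 promoter, with 35 and 40 PETs there.

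The study compared A673 cells with and without STAG2. Contacts of the GSTM cluster as a whole were not shown to differ. Each class was tested in a fit over all windows of 100 kb (quasi-likelihood test of edgeR, Benjamini-Hochberg adjustment over windows), and values are normalised PETs. In total the cluster held 868 and 864 normalised PETs in STAG2-null and 825 and 785 in wild-type libraries, or 866 ± 2.53 against 805 ± 28.5 (SD, n = 2). The libraries lay apart by a small margin, as in 23.5% of windows in that direction. The log2 difference of STAG2-null over wild-type was 0.11 ± 0.11 (SE, 95% interval -0.11 to 0.32, adjusted p = 0.682 in edgeR), where 5.99% of windows passed 0.05.

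None of the 3 parts of the total passed either. Within the cluster there were 250 ± 5.6 normalised PETs against 234 ± 28 (SD, n = 2), a log2 difference of 0.10 ± 0.13 (interval -0.16 to 0.36, adjusted p = 0.803 in edgeR, 2.15% of windows called), and the libraries overlapped. It stood at 0.32 among pairs at least 20 kb apart (adjusted p = 0.50 in edgeR, the lowest of a range up to 0.982 over the alternatives) and turned to -0.024 without wild-type 2. To the left flank there were 301 ± 10.8 against 266 ± 7.92 (SD, n = 2), a log2 difference of 0.18 ± 0.14 (interval -0.09 to 0.45, adjusted p = 0.588 in edgeR, 2.88% called), and the libraries lay apart, as in 22.1% of windows. To the right flank there were 313 ± 8.65 against 306 ± 12.1 (SD, n = 2), a log2 difference of 0.03 ± 0.13 (interval -0.22 to 0.29, adjusted p = 0.936 in edgeR, 2.39% called) that turned to -0.044 with scaling per chromosome, and the libraries overlapped. No class had an unadjusted p under 0.05 in this edgeR fit, where 18%, 13.9%, 14.5% and 14.7% of windows did for the total, within, left and right, and none did in DESeq2. The 10 Mb window that holds the cluster runs from 110 to 120 Mb, so the cluster lies near its left edge. This window stood at -0.08 in library shares and chromosome 1 at 0.08. With scaling per 10 Mb window the total stood at 0.20 (adjusted p = 0.193 in edgeR, the lowest over the alternatives). Under that scaling contacts within stood at 0.24 and the left flank at 0.26, and these and the total had an unadjusted p under 0.05 (adjusted p = 0.565 and 0.479 in edgeR for within and left). Over all windows under that scaling, 769 higher and 1091 lower of 17254 had such a p for the total. For contacts within these were 426 and 207 of 7195, and for the left flank 470 and 743 of 13225.

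The shares of the cluster's contacts were close in the genotypes. Contacts within the cluster made up 28.5% and 30.2% of its PETs in STAG2-null libraries and 30.8% and 26.4% in wild-type libraries, with Wilson 95% intervals of 25% to 32.3%, 26.7% to 33.9%, 27% to 34.8% and 23.0% to 30.1%. The left flank took 34.6 ± 1.68% against 33.2 ± 0.258% and the right flank 36.0 ± 0.513% against 38.2 ± 2.84% (SD, n = 2). With 2 libraries against 2 the two-sided exact permutation test cannot go below 0.33, and it gave 1 for contacts within, 0.33 for the left and 0.667 for the right flank. Intervals cover counting error only.

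Of the 12 anchors, all of which had enough PETs to be tested, 0 passed the quasi-likelihood test of edgeR after adjustment over all anchors, where 0.875% of 60425 anchors did. At an unadjusted p under 0.05 there was 1 higher, where 5.77% of all anchors were (11.9% either way), and 0 lower, and DESeq2 had 0 either way. Their median log2 difference was 0.08 against 0.00127 over all anchors tested. The GSTM4 anchor held 220 and 261 PETs in STAG2-null libraries and 201 and 216 in wild-type libraries, or 347 ± 37.2 against 294 ± 17.2 normalised PETs (SD, n = 2). The groups did not overlap, and the log2 difference was 0.24 ± 0.13 (interval -0.02 to 0.51, adjusted p = 0.468 in edgeR). The GSTM5 anchor held 77 and 69 against 62 and 73 PETs, a log2 difference of 0.15 ± 0.20 (interval -0.23 to 0.54).

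The anchor with the unadjusted p under 0.05 was anchor 8 (chr1:110243544-110245993), the sparsest of the cluster. It held 10 and 12 PETs in STAG2-null and 3 and 7 in wild-type libraries, a log2 difference of 1.16 ± 0.54 (interval 0.09 to 2.23, adjusted p = 0.367 in edgeR), which stood at 1.77 without wild-type 2 and 0.79 without wild-type 1. In normalised PETs 5 anchors lay higher in both STAG2-null libraries (1, 7, 8, 9 and 11) and 2 lower (6 and 12, whose differences turned to 0.0016 and 0.019 with scaling per 10 Mb window), where 20.6% and 21.6% of all anchors do. The remaining 5 overlapped, among them anchor 5, at -0.01 ± 0.18.

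Of the 530 pairs, 21 had at least 20 PETs and were tested as loops, 11 within the cluster and 5 to each flank, with 37.6% of the cluster's PETs. None passed the quasi-likelihood test of edgeR after adjustment over all loops, where 0.194% of 11872 loops did. At an unadjusted p under 0.05 there was 1 higher and 0 lower pair, against 4.84% of all loops higher and 9.59% either way, and DESeq2 had 0. At the same unadjusted cut-off, plain library totals gave 3 higher and 0 lower pairs, where 730 and 435 of all 11872 loops were. Scaling per chromosome gave 3 and 0, against 692 and 316 of all loops. Scaling per 10 Mb window gave 4 and 0, against 658 and 244. Each of these settings thus had more higher than lower loops over the genome as well. Among pairs at least 20 kb apart, 3 of the 15 tested were higher and 0 lower, against 243 and 258 of 5096 loops. The median of the 21 was -0.05, against -0.04 over all loops. In 5 pairs both STAG2-null libraries were higher and in 3 both were lower, where 19.7% and 20.3% of all loops do so, and 13 overlapped.

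The pair with the unadjusted p under 0.05 joined the GSTM4 and GSTM5 promoters across 58.5 kb. It held 7 and 11 PETs in STAG2-null libraries and 3 and 2 in wild-type libraries, or 12.5 ± 3.41 against 3.67 ± 1.3 normalised PETs (SD, n = 2). Both STAG2-null libraries lay above both wild-type libraries. The log2 difference was 1.75 ± 0.68 (interval 0.42 to 3.09, adjusted p = 0.339 in edgeR). With 18 PETs against 5 in all, the ratio of library shares was 3.72, with an exact 95% binomial interval of 1.33 to 12.8. That interval pools the libraries of a genotype and covers counting error only, not library-to-library spread. It also lay above 1 for GSTM4 with anchor 11 and with the left-flank anchor centred 26.5 kb outside, each at 2.45 (1.03 to 6.48). In DESeq2 the GSTM4 to GSTM5 pair had an unadjusted p of 0.098. The authors' deposited table lists this loop among its 650 differential loops as stronger in the mutant, with a log2 fold change of 1.79 once turned to mutant over wild-type, a p-value of 0.00724 and an adjusted p-value of 0.0681. By p-value it ranks 440 in that table, whose largest adjusted p-value is 0.0998. The authors list 650 differential loops beside 22680 high-confidence loops, and with an anchor in the cluster 1 beside 33, a similar share. The log2 difference of GSTM4 to GSTM5 stood at 0.70 with anchors merged within 5 kb. There the GSTM4 anchor joins the left-flank anchors within 50 kb and the GSTM5 anchor joins anchor 10.

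**Figure D4:**
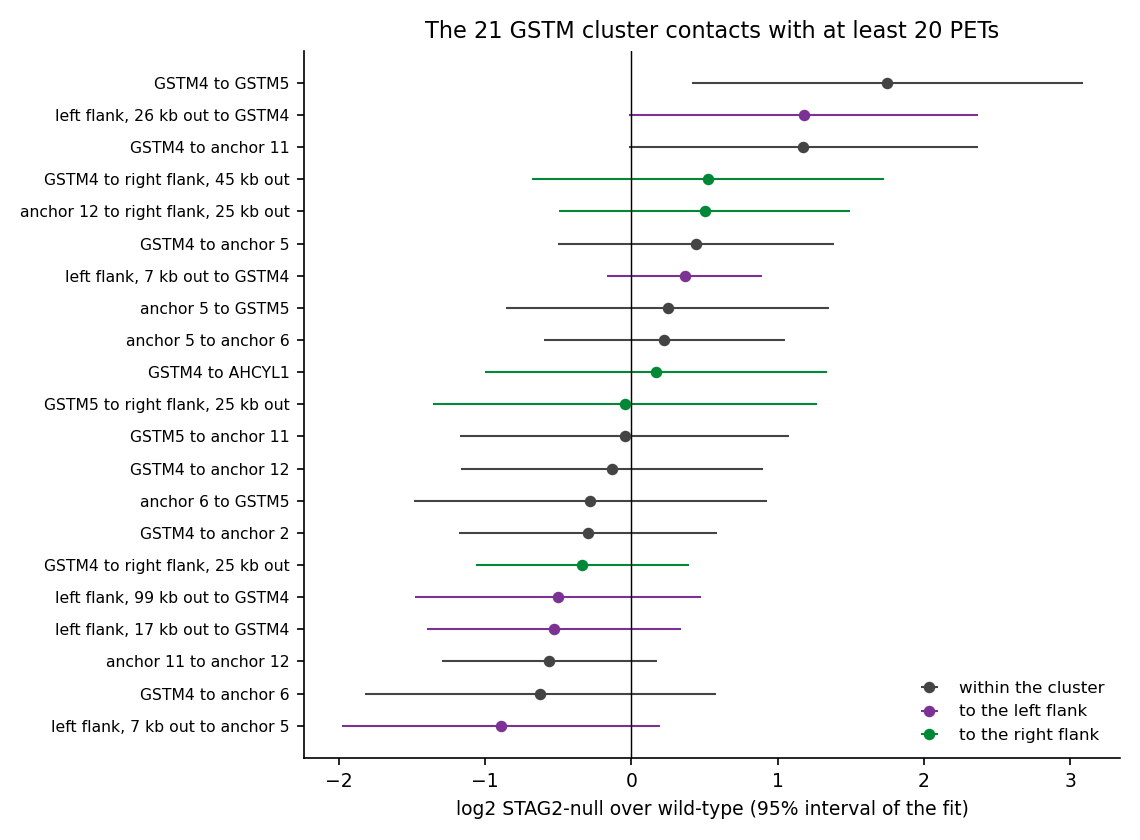
Log2 difference of STAG2-null over wild-type for the 21 tested pairs, with the 95% interval of the edgeR fit as a bar and colour for contacts within the cluster, to the left and to the right flank. The interval of the GSTM4 to GSTM5 pair, 0.42 to 3.09, lies above 0, and those of the other 20 pairs include 0.

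The next largest differences also involved the GSTM4 anchor, which is an end of most of the tested pairs, higher and lower ones alike. Its pair with anchor 11 held 7 and 12 against 3 and 5 PETs, a log2 difference of 1.18 ± 0.61 (interval -0.02 to 2.37, adjusted p = 0.521 in edgeR). Its pair with the left-flank anchor centred 26.5 kb outside held 13 and 6 against 4 and 4 PETs, with the same difference, 1.18 ± 0.61, which stood at 0.48 without STAG2-null 1. With anchors merged within 5 kb the pair of GSTM4 with anchor 11 is pooled with that of GSTM4 with anchor 12, and stood at 0.46. At the other end, the pair of anchor 5 with the anchor centred 7.49 kb to the left held 7 and 4 against 11 and 9 PETs, a log2 difference of -0.89 ± 0.55 (interval -1.98 to 0.19). With anchors merged, which pools this pair with GSTM4 to anchors 5 and 6 among others, it stood at -0.14. The pairs of GSTM4 with anchor 6 (-0.62 ± 0.61) and of anchors 11 and 12 (-0.56 ± 0.38) were also lower in both STAG2-null libraries. The strongest contact of the cluster, GSTM4 with the anchor next to it on the left, stood at 0.36 ± 0.27 (interval -0.17 to 0.89).

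Summed by class, the GSTM4 anchor held 127 PETs without STAG2 and 109 with it to the other anchors of the cluster, or 54 and 73 against 57 and 52 by library, which overlap. Its flank contacts held 193 against 171 PETs on the left and 161 against 137 on the right. Without the GSTM4 anchor the cluster held 721 against 724 PETs, a ratio of library shares of 1.03.

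In the authors' deposited table of 22680 high-confidence loops, 33 had an anchor in the cluster, 18 within it, 7 to the left and 8 to the right. The GSTM4 anchor was an end of 16 of them. They ran from 5.67 kb to 380 kb, the longest joining GSTM4 with an anchor centred 287 kb outside on the right, and the largest false discovery rate in that table for a cluster loop was 0.00588. All 21 tested pairs were among the 33. For comparison, 31 other glutathione genes were listed (other transferase classes, glutathione synthesis, reductase and peroxidases). Among the differential loops 1 of these is named, GPX4, a peroxidase of membrane lipids, as a gene along a loop. The share of all genes so named is not given here, so this count says nothing of glutathione genes as a set. For 0 of the 31 could a promoter anchor be placed, so none could be compared.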

How the data were processed

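Counts of PETs per anchor pair and a p-value per pair were deposited for each library, with HiC-Pro and hg19 listed, versions absent, per the submitters' processing notes. How loops were called is not given in the sources used here, and these deposited p-values per pair were not used. The deposited tables of high-confidence and differential loops hold counts, p-values and log2 fold changes, per the file headers. Their log2 values run wild-type over mutant, as set against the counts (r = 0.998 across 650 loops), and loop lengths are other values in bp, per the file headers. Their count columns name a genotype and not a library, and in all 33 cluster loops they equalled the per-library counts in order.

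Pairs, anchor sums and window sums with at least 20 PETs over the 4 libraries were fitted with edgeR 4.0.16 in R 4.3.3 (quasi-likelihood, genotype alone), with library totals over all pairs and TMM factors of 0.95 to 1.05. Benjamini-Hochberg adjustment ran over all features of a kind and calls were made at 0.05. Windows of 100 kb were tiled so that the cluster was 1 of them. DESeq2 1.42.0 was an alternative, and Wilson, exact binomial and permutation values came from scipy 1.17.1. On simulated counts of 11872 loops the fit recovered 51% of 4-fold and 6% of 2-fold changes, and of 17254 windows 92% and 59%. The named items were the 5 genes, all 12 anchors, tested pairs and the pairs with the most PETs. Members and lists were chosen with earlier results of these data known.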

Additional observations from a re-analysis of the deposited data

How the results depend on the processing

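No class, anchor or pair of the cluster passed an adjusted p of 0.05 under any of the 83 alternative fits, and the lowest adjusted p among them was 0.193 in edgeR (the cluster total with scaling per 10 Mb window). Most single pairs held fewer than 20 PETs and were not tested. Scaling per chromosome and per 10 Mb window moved the median of all loops from -0.04 to 0.11 and 0.12. Calls over all features, higher and lower, went from 10 and 13 loops to 0 and 0 with DESeq2, 7 and 1 with plain totals, 9 and 1 per chromosome and 5 and 1 per 10 Mb window. Calls of anchors went from 225 and 304 to 2 and 20 with DESeq2 and 0 and 0 per 10 Mb window, and of windows (total) from 468 and 565 to 47 and 124, and 27 and 55. The correlation of same-numbered libraries' deviations was between -0.0156 and 0.0118 over the 6 kinds of feature. With as few as 20 PETs over 4 libraries, counting noise could hide a pairing, so this does not decide whether the numbers pair the libraries. With the replicate block the total stood at 0.11, contacts within at 0.10, left at 0.18 and right at 0.04. GSTM4 to GSTM5 stood at 1.75 there, and no call in the cluster changed.

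The direction of small differences did turn, and except where the alternative itself pools or removes pairs or libraries the cause was not tested. The right flank stood at -0.044 with scaling per chromosome and between -0.0084 and 0.077 on leaving out 1 library, lowest without wild-type 1, and contacts within between -0.024 (without wild-type 2) and 0.22. GSTM4 to GSTM5 ran from 1.43 (without wild-type 2) to 2.13 (without wild-type 1). With scaling per 10 Mb window anchors 2, 4, 5, 6 and 12 stood at 0.084, 0.00031, 0.075, 0.0016 and 0.019, and the pairs GSTM4 to anchor 12, GSTM5 to anchor 11 and GSTM5 to the right-flank anchor 25.4 kb outside at 0.039, 0.12 and 0.12. Anchor 3 stood at -0.031 with scaling per chromosome. Anchor 2 stood at 0.0039 with plain library totals, 0.0045 with a minimum of 10 PETs and 0.00087 with none, and plain totals put the latter 2 pairs at 0.046 and 0.046. Among pairs at least 20 kb apart, anchors 2, 3 and 12 stood at 0.10, -0.073 and 0.061, GSTM4 to anchor 12 at 0.0069 and GSTM5 to the right flank at 0.090. With anchors merged within 5 kb, 16 of 21 pairs had a value, but on 12 distinct merged pairs, so some pairs share 1 value. GSTM4 to anchor 5 stood at -0.14, a value shared with GSTM4 to anchor 6. GSTM4 to anchor 12 stood at 0.46, a value shared with GSTM4 to anchor 11. Anchor 5 to GSTM5 stood at -0.15, GSTM5 to anchor 11 at 0.46 and GSTM5 to the right flank at 0.32.

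On leaving out 1 library, anchors 2, 3, 4 and 5 ran from -0.30 to 0.32, -0.11 to 0.25, -0.44 to 0.21 and -0.13 to 0.10. The pairs of GSTM4 ran from -1.83 to 0.15 (left-flank anchor 99.4 kb outside), -0.63 to 0.10 (anchor 2), -0.49 to 0.98 (anchor 5), -0.58 to 0.23 (anchor 12), -0.66 to 0.13 (right-flank anchor 25.4 kb outside) and -0.31 to 0.81 (AHCYL1). Anchor 5 to anchor 6 ran from -0.26 to 0.91, anchor 5 to GSTM5 from -0.12 to 0.69, anchor 6 to GSTM5 from -1.17 to 0.29, GSTM5 to anchor 11 from -0.12 to 0.026 and GSTM5 to the right flank from -0.40 to 0.26. On leaving out 1 library, an alternative chosen after seeing the data, the share of the cluster's PETs (STAG2-null minus wild-type, percentage points) ran from -1.45 to 2.94 within the cluster, so that its direction turned (main value 0.746), from 0.236 to 2.62 on the left and from -4.18 to -0.162 on the right. With 2 libraries a group this shows nothing of stability.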
